A study of Mus musculus with 6 samples.

Results

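The pancreas of Spink3-/- mice, which lack the trypsin inhibitor Spink3, was compared with that of Spink3+/+ mice across 13244 tested genes. The comparison takes in 4 of the 6 arrays of the series, 2 per genotype, chosen by the genotype in the labels. Each array measured total RNA from the whole organ, taken at postnatal day 0.5 from C57BL/6N mice, frozen in liquid nitrogen, extracted on columns and labelled with Cy3. In the words of the design, made shorter, all acinar cells of Spink3-/- undergo a nonapoptotic death with autophagy. The other 2 arrays are from Spink3-/-XKI/+, in which part of the acinar cells is described as normal; they carry the same null genotype, entered the fit only to steady its estimate of the spread, and are quoted where their levels help to read a gene. XKI is not explained in the labels. They also do not state whether the arrays of a genotype represent different animals or pools, so each p-value reflects the spread among these samples only, and that spread may be technical.

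Acinar cells make the digestive enzymes of the pancreas and store them in zymogen granules, mostly as inactive precursors. Trypsin, once active, can activate the other precursors, and Spink3 (SPINK1 in humans) is the inhibitor packed into the same granules that holds trypsin in check. Autophagy wraps cytoplasm or organelles in a double membrane and delivers them to the lysosome. Much of that process is run by proteins already present in the cell, so transcript levels report on it only in part.

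Levels are given on the log2 scale relative to the 75th percentile of the signal on the same array, so a level of 0 is that percentile and a step of 1 is a doubling. A difference is the mean level in Spink3-/- minus that in Spink3+/+. A gene was called where its Benjamini-Hochberg adjusted p over all tested genes, from limma, was under 0.05. Groups were said not to overlap where both arrays of 1 genotype lay above both of the other. Of the 13244 tested genes, 12289 had a probe well above background on all 4 arrays, 409 entered through Spink3-/- alone and 546 through Spink3+/+ alone. The arrays were alike as a whole: their levels correlated at 0.974 to 0.985, and replicate 1 of Spink3-/- lay closer to replicate 2 of Spink3+/+ (0.983) than to its own replicate (0.980). The median SD between the arrays of a genotype was 0.129 in Spink3+/+ and 0.191 in Spink3-/-, and the number of arrays limits every value below.

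Spink3 itself separated the genotypes. Its level was 9.84 and 10.26 in Spink3+/+ and 3.25 and 2.95 in Spink3-/-. This was a 123-fold decrease (log2 difference -6.95, SE 0.23, adjusted p = 0.000517), measured well above background in every array. Both Spink3-/-XKI/+ arrays were low as well, at 2.64 and 2.34. The labels do not give the deleted stretch of the gene, so whether the probe lies inside it is not known.

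In all, 7 genes were called, 0.0529% of those tested. The 5 higher in Spink3-/- (0.0378%) were Rab13, Ces2a, Pla2g5, Saa3 and 4930473A02Rik, and the 2 lower (0.0151%) were Spink3 and Nsun7. At an unadjusted p under 0.05 there were 672 genes, or 5.07%, 350 higher and 322 lower; with the arrays scaled on spike-in controls, which moved the median of all genes to 0.11, these were 451 and 92. The genotypes did not overlap in 33.1% of genes, 16.1% upward and 17% downward. A p under 0.05 is passed by a like share of genes where none differs. With 2 arrays against 2, full separation is also common without a difference, so neither count by itself shows genes that differ. Differences over 1 were measured in 162 genes upward (1.22%) and 119 downward (0.899%). The median difference over all genes, which the scaling of the arrays largely sets, was -0.01, with 6446 above 0 and 6798 below. Apart from Spink3, every called gene was dim, with at least 1 genotype not well above background.

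**Figure D1:**
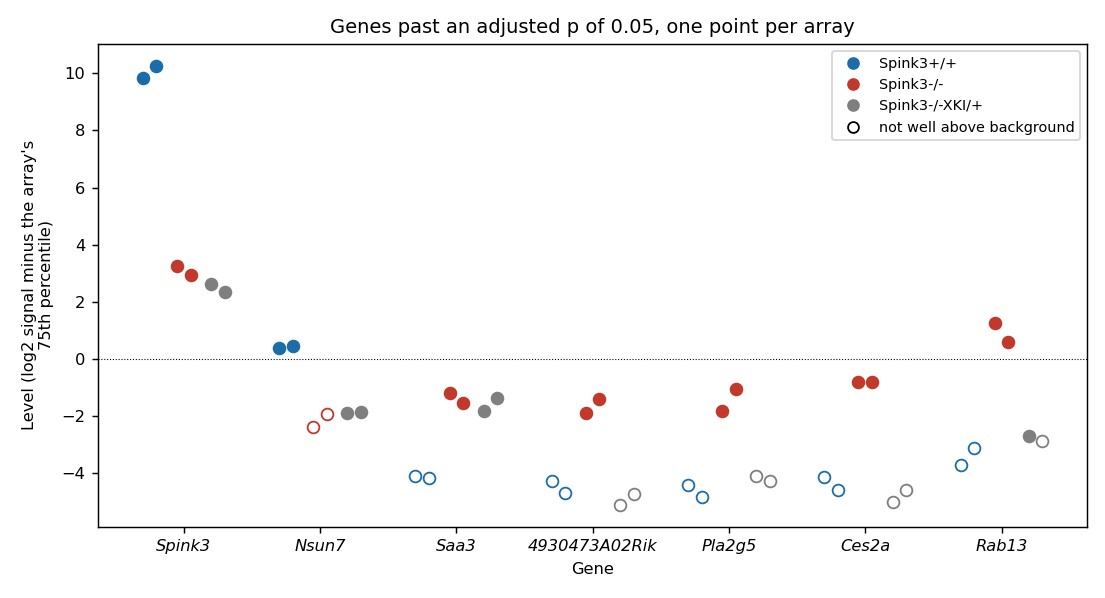
Level of the 7 called genes on each array (log2 signal minus the array's 75th percentile), by genotype; each point is 1 array, and open points were not well above background. The Spink3-/- arrays stand apart from the Spink3+/+ arrays in each gene; in Saa3 and Nsun7 the Spink3-/-XKI/+ arrays lie beside Spink3-/-, while in Ces2a, Pla2g5 and 4930473A02Rik they lie beside Spink3+/+.

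**Figure D2:**
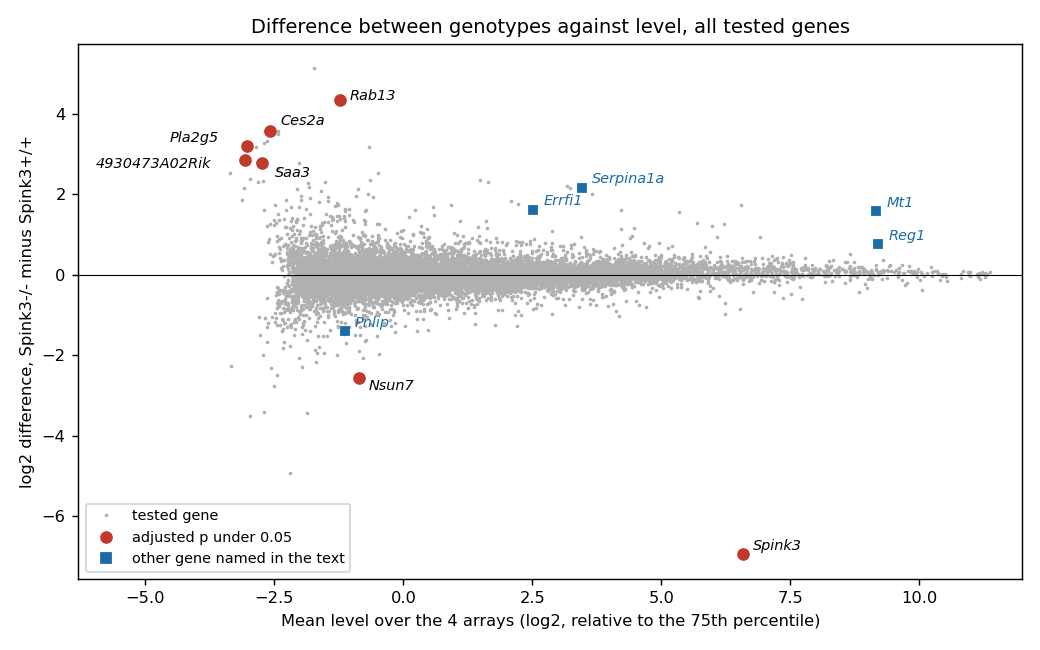
Difference between the genotypes (Spink3-/- minus Spink3+/+, log2) against the mean level over the 4 arrays for each tested gene; red points were called, and blue squares are other genes named in the text. Spink3 has a difference of -6.95 at a mean level above 5, while the other called genes lie at mean levels below 0, where the scatter is widest.

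Saa3, an acute-phase apolipoprotein made at sites of inflammation, rose. It lay at -4.09 and -4.15 in Spink3+/+, not well above background, and at -1.17 and -1.52 in Spink3-/-, an increase of at least 2.31-fold (log2 difference +2.77, SE 0.22, adjusted p = 0.0281). Such a bound sets the brighter group against the lowest signal that counted as well above background on each dim array, or the probe's own value where that is higher; the fitted difference beside it is no bound. Spink3-/-XKI/+ reached -1.83 and -1.38, so all 4 arrays without Spink3 were above both with it. The array carries 1 probe for Saa3, at chr7:53970389-53970448 of mm9 on the minus strand, and its sequence is shown because the call rests on it alone.
Saa3 probe: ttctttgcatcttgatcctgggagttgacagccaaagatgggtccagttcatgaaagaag

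Ces2a encodes a carboxylesterase, an enzyme that hydrolyses ester bonds of lipids and drugs. Its level was -4.14 and -4.60 in Spink3+/+ and -0.81 on both Spink3-/- arrays, an increase of at least 3.36-fold (log2 difference +3.56, SE 0.23, adjusted p = 0.0187). The other carboxylesterases tested did not pass: Ces1d differed by -0.55 and Ces1e by +0.68. Pla2g5, a secreted phospholipase A2, rose at least 2.19-fold, from -4.42 and -4.83 to -1.81 and -1.04 (log2 difference +3.20, SE 0.29, adjusted p = 0.0462). A second Pla2g5 probe, not kept because only 1 Spink3-/- array was well above background, read -3.83 and -3.04 against -0.53 and -2.28. The non-coding transcript 4930473A02Rik rose at least 1.90-fold, from -4.28 and -4.70 to -1.89 and -1.38 (log2 difference +2.85, SE 0.26, adjusted p = 0.0462). In each of these 3 genes the groups did not overlap and the Spink3-/-XKI/+ arrays stayed near Spink3+/+, at -5.01 and -4.59 for Ces2a.

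Rab13 and Nsun7 each turned on a probe made from a cDNA clone, and other probes of the same genes did not show the difference, so their probes are set out here. Rab13 is a small GTPase that guides vesicles to the cell surface and to tight junctions. Nsun7 belongs to a family of RNA cytosine methyltransferases. The Rab13 probe that was called was designed on cDNA AK080805 (chr3:90030248-90030307 of mm9, plus strand; its first 30 bases are printed), and begins 5305 bases past the end of the probe for the RefSeq transcript (chr3:90024884-90024943). The Nsun7 probe that was called follows cDNA AK035181 without a gap (chr5:66687139-66687198), while the probe for the RefSeq transcript spreads over 1968 bases of genome (chr5:66687124-66689091), so it crosses a splice junction. Capitals mark the 15 bases that both Nsun7 probes share.
Rab13, cDNA probe: gctgcttttgttagagtattctcagtgttg
Rab13, RefSeq probe: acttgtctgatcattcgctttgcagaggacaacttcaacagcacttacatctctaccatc
Nsun7, cDNA probe: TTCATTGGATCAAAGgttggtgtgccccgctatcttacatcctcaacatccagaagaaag
Nsun7, RefSeq probe: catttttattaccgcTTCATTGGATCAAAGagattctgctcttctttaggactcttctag

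On the cDNA probe, Rab13 lay at -3.72 and -3.11 in Spink3+/+ and at 1.28 and 0.60 in Spink3-/-, at least 11.3-fold higher (log2 difference +4.35, SE 0.30, adjusted p = 0.0187). Spink3-/-XKI/+ stayed low, at -2.69 and -2.86. The probe of the RefSeq transcript, not kept for testing, lay at -2.07 and -1.12 in Spink3+/+ against -2.24 and -2.52 in Spink3-/-. The rise was therefore measured on the probe of the cDNA clone and was not seen on the probe of the RefSeq transcript. Whether the RefSeq transcript of Rab13 also holds the sequence of the cDNA probe was not tested.

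Nsun7 fell on the cDNA probe, from 0.39 and 0.44 to -2.37 and -1.93 (log2 difference -2.57, SE 0.20, adjusted p = 0.0280), at least 5.93-fold. Here the bound is the dim probe's own value and is no firmer than the fitted difference. Spink3-/-XKI/+ lay at -1.90 and -1.86, beside Spink3-/-. The RefSeq probe was not well above background on any array, with -4.46 and -4.87 against -4.99 and -4.37, and a further Nsun7 probe overlapped between the genotypes. The other family members tested, Nsun2, Nsun4, Nsun5, Nop2 and Trdmt1, differed by -0.24 to +0.23, and none was called.

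These calls other than Spink3 depended on single arrays. Without replicate 1 of Spink3+/+ none of the 6 passed (adjusted p = 0.0931 to 0.131), without replicate 2 of Spink3+/+ only Ces2a and Rab13 did, without replicate 1 of Spink3-/- Saa3 and 4930473A02Rik were lost, and without replicate 2 of Spink3-/- only Nsun7 and Rab13 passed. Leaving out either Spink3-/-XKI/+ array cost Pla2g5 and 4930473A02Rik, and normexp background correction with quantile normalization left none of the 6 (adjusted p = 0.0540 to 0.931). That setting also shrank the log2 differences, to 0.52 for Saa3, 0.84 for Pla2g5, 0.88 for 4930473A02Rik, 1.17 for Ces2a, 2.06 for Rab13 and -1.31 for Nsun7, so the folds given as bounds hold for the processed signal alone.

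Several genes came close to the threshold. Egr2, an early growth response transcription factor, lay at -4.25 and -4.37 in Spink3+/+ and at -0.52 and -1.44 in Spink3-/- (difference +3.33, SE 0.33, adjusted p = 0.0656). Nrxn3, a synaptic adhesion protein, lay at -3.92 and -4.52 against -0.29 and -1.01 (adjusted p = 0.0901). Slc13a3, a carrier of dicarboxylates such as succinate, had -2.70 and -1.80 against 1.33 and 0.54 (adjusted p = 0.0999). It lay at 0.70 and 0.77 in Spink3-/-XKI/+, so all 4 arrays without Spink3 were again above both with it. Downward, Ntn4, a netrin of basement membranes, had -0.92 and -0.48 against -2.76 and -2.53 and lay at -2.29 and -1.97 in Spink3-/-XKI/+ (adjusted p = 0.0999). Adgrf4, an adhesion G protein-coupled receptor, read -4.24 and -4.69 against -0.27 and -1.54 (adjusted p = 0.0999). None of these passed. Egr2, Nrxn3 and Adgrf4 were not well above background on either Spink3+/+ array, so their increases are bounded at 2.98-fold, 3.74-fold and 3.14-fold or more. Slc13a3 was dim in this way on 1 Spink3+/+ array (at least 7.68-fold) and Ntn4 on both Spink3-/- arrays (at least 3.35-fold).

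Other large differences were uneven between the arrays of 1 genotype. Lrrc69 had the largest negative difference after Spink3, -4.93, with 1.77 and -1.25 in Spink3+/+ and -4.99 and -4.35 in Spink3-/-. Lpcat1, which rebuilds phosphatidylcholine from its lyso form, had 1.58 and -1.86 against -2.98 and -4.18. Csn3, a milk casein, read -3.65 and -4.72 against -2.35 and 0.96. In each, the arrays of the brighter genotype lay over 3 apart, and the limma adjusted p was 0.410 for Lrrc69, 0.845 for Lpcat1 and 0.829 for Csn3. The dimmer genotype was not well above background on either array. The folds are therefore bounded at 6.54 or more for Lrrc69, 4.95 for Lpcat1 and 3.65 for Csn3. Of the 24 genes with the largest differences each way, 13 have further probes, 18 in number, and none of those 18 was well above background on enough arrays to be kept. The upward group also held Aldh3b3, Fam90a1b and Dusp5, with differences of +2.81 to +3.22, and the downward group Slc51a, Nrn1l, Nell2, Tle4, Kcnt1, Smg8 and Thrb, with -3.51 to -1.94. In all of these but Kcnt1, at least 1 array of the dimmer genotype was not well above background, so the differences were not measured on both sides. For Nell2 a second probe, too dim to be kept, differed by +0.50.

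Among genes well above background on all 4 arrays, where the fold is measured on both sides, most of the 10 largest positive differences belonged to proteins that the liver secretes. Serpina1a, an inhibitor of elastase, lay at 2.44 and 2.33 in Spink3+/+ and at 4.44 and 4.63 in Spink3-/- (difference +2.15, SE 0.34, adjusted p = 0.307). Its near-identical copies Serpina1c and Serpina1e differed alike, Serpina1e at 2.06 and 2.07 against 4.21 and 4.33; their probes may share transcripts, so the 3 are not separate evidence. All 3 passed when only the 4 arrays of these genotypes were fitted (adjusted p = 0.0430, 0.0408 and 0.0408). These values come from the brightest probe of each gene. A second tested probe differed by only +0.52 for Serpina1a and by +1.10 for Serpina1e. Afp, alpha-fetoprotein, had 0.32 and 0.64 against 3.33 and 2.24, Kng1, the kininogen that yields bradykinin, 0.03 and 0.56 against 2.61 and 2.70, and Alb, albumin, -0.23 and 0.35 against 2.13 and 1.44. Downward, Cklf, a chemokine-like protein, differed by -1.40, but its other tested probes by +0.40 and -0.08.

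As a list, 15 of the 16 liver genes tested lay above 0 and 1 below, with a median difference of 1.23, and 13 of 16 did not overlap upward, where 16.1% of all tested genes did so. None was called. Over the 14 members well above background on all 4 arrays the median was 0.81, with 11 not overlapping, against -0.01 and 15.6% for all such genes. The summed signal of the list was 136 and 152 in Spink3+/+ and 191 and 212 in Spink3-/-. Of the 16 members, 2 entered through Spink3-/- alone, so they were not well above background on both Spink3+/+ arrays. Per array, the median deviation of the members from the Spink3+/+ mean was 1.37 and 0.85 in Spink3-/-, and -0.39 and 0.48 in Spink3-/-XKI/+. Whether liver tissue in the samples has a part in these values, or in the secreted inhibitors named above, was not tested.

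The labelled tissue showed its defining transcripts in every array. Of the digestive enzymes 25 were tested, all well above background on the 4 arrays. Of these, 7 lay above 0 and 18 below, with a median of -0.14 (-0.03 with spike-in scaling). None was called, 10 did not overlap downward (17% of all genes did so) and none did so upward. Prss1, a trypsinogen, lay at 10.03 and 10.44 in Spink3+/+ and 9.74 and 9.97 in Spink3-/-. Cpa1, carboxypeptidase A1, and Amy2a5, pancreatic amylase, differed by +0.02 and +0.04, less than their SE of 0.23 and 0.22.

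Larger differences were seen in a few enzymes. Pnlip, pancreatic lipase, which comes on late in development, lay at -0.07 and -0.79 in Spink3+/+ and at -1.95 and -1.73 in Spink3-/- (difference -1.41, SE 0.31, adjusted p = 0.642). Spink3-/-XKI/+ was above both, at 0.96 and 0.36. Pla2g1b, pancreatic phospholipase A2, had 3.45 and 3.56 against 2.90 and 2.91, with 3.95 and 4.23 in Spink3-/-XKI/+. Ctrl, a chymotrypsin-like protease, differed by -0.84 and Cela1, an elastase, by -0.58. Near-identical trypsinogens (Try4, Try5, Try10) may share probe signal and are uncertain one by one. In whole tissue, fewer cells of a type and less RNA per cell cannot be told apart.

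Acinar transcription factors differed little. Of 11 tested, 2 lay above 0 and 9 below, with a median of -0.10 (0.01 with spike-in scaling) and 1 not overlapping, downward. Ptf1a, the master factor of acinar fate, lay at 1.01 and 0.54 against 0.97 and -0.19, and its partner Rbpjl differed by -0.13. Foxa2 was the member without overlap, at 2.24 and 1.90 against 1.64 and 1.56. Among 21 genes of the zymogen granule and of exocytosis, 10 lay above 0 and 11 below (median -0.01), and Rab13 was the only one called. Gp2, the granule membrane glycoprotein, differed by -0.42 with overlapping groups and Zg16, a granule lectin, by -0.07. Other inhibitors of proteases were represented by 13 genes, 10 above and 3 below 0, with a median of 0.31 that became -0.03 without replicate 2 of Spink3-/-. Serpini2, the pancreas serpin, lay at 6.34 and 6.54 against 6.72 and 6.79, and Spink4, a relative of Spink3, at 0.80 and 0.56 against 1.02 on both arrays. Slpi, which blocks elastase, was on the other side, at 2.51 and 3.03 against 2.26 and 2.04.

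Transcripts of the autophagy machinery were close to level between the genotypes. Of 42 genes, 40 were tested, 16 lay above 0 and 24 below, with a median of -0.04; none was called, 4 did not overlap upward and 7 downward, which is no larger a share upward than the 16.1% of all genes and near their 17% downward. The median took the other sign with spike-in scaling (0.07), without replicate 1 of Spink3+/+ (0.05) and without replicate 1 of Spink3-/- (0.04). The differences of the 40 ran from -0.56 to +0.42.

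The steps differed somewhat in sign. In the kinase complex that starts the process, Ulk1 lay at 3.70 and 3.47 in Spink3+/+ and 3.20 and 3.45 in Spink3-/-, and 4 of 5 members lay below 0. In the class III PI3-kinase complex, which marks the membrane with a lipid, 3 of 6 members lay below 0 without overlap: Atg14 at 0.13 and -0.22 against -0.69 and -0.39, Uvrag (-0.26) and Pik3r4 (-0.20). Becn1, its regulatory core, differed by +0.12. Atg9a, the membrane protein whose vesicles seed the autophagosome, had the lowest difference of the list, -0.56, at 0.96 and 0.47 against 0.34 and -0.03. Vmp1, which works in the endoplasmic reticulum at the growing membrane and is known from pancreatitis, had the highest difference, +0.42 (SE 0.22), from 2.83 and 3.00 in Spink3+/+; both Spink3-/- arrays lay above these and Spink3-/-XKI/+ was at 3.57 and 3.34.

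The ubiquitin-like proteins that coat the autophagosome did not separate the genotypes. Map1lc3b, the usual LC3 marker, lay at 4.00 and 3.64 against 3.62 and 3.83, and none of the 5 LC3 and GABARAP genes was without overlap. Of the 7 genes of the conjugation system, Atg5 differed by +0.08 and Atg7 by -0.02; Atg3 (+0.42) was the member without overlap upward and Atg16l1 (-0.25) downward. Sqstm1, the p62 cargo receptor, had 1.75 and 1.60 against 1.55 and 2.32. Tfeb and Tfe3, transcription factors of lysosome and autophagy genes, did not overlap upward: Tfeb lay at -1.35 and -1.57 against -1.10 and -1.02.

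**Figure D3:**
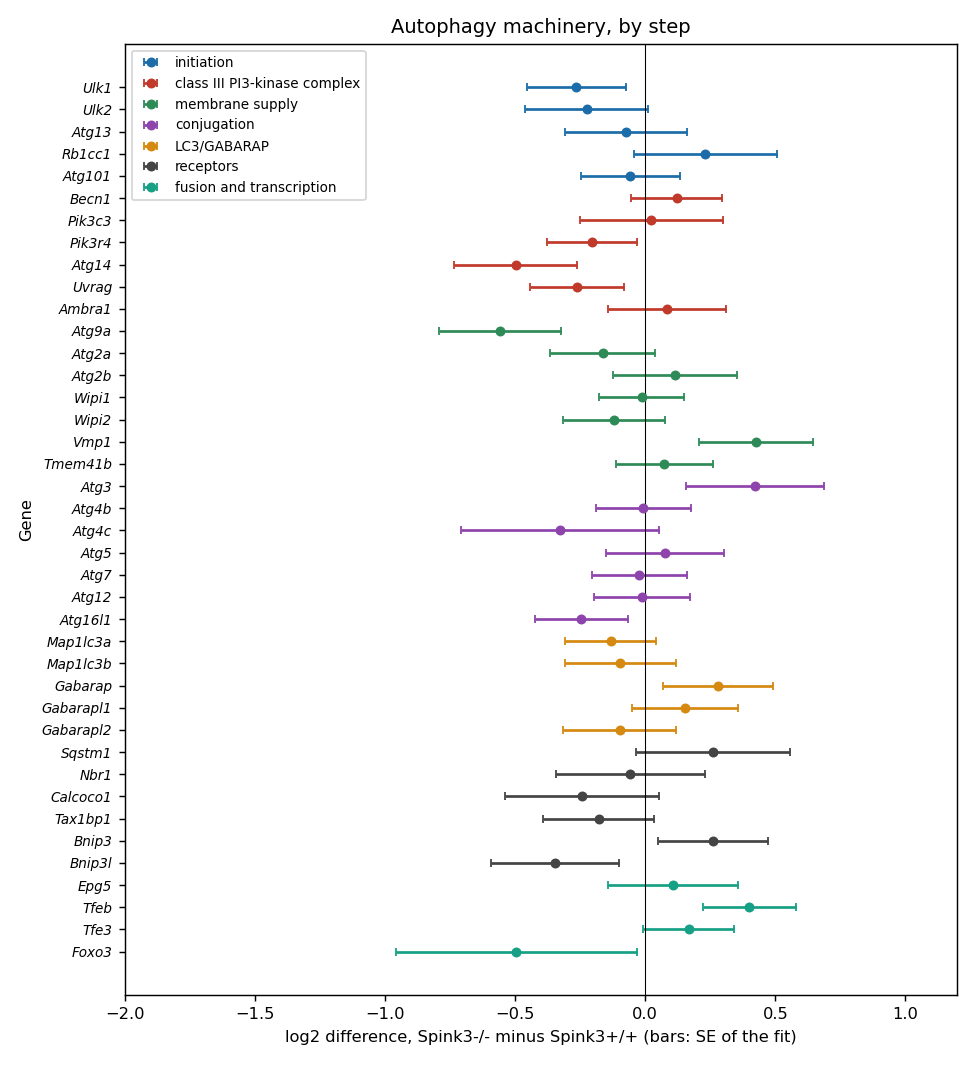
Difference between the genotypes (Spink3-/- minus Spink3+/+, log2) for the 40 tested autophagy genes, ordered by step; points are the fitted differences from 2 arrays per genotype and bars their SE. All points lie between -0.56 and +0.42, and no step stands to 1 side as a whole.

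Lysosomal genes were also near level, with 20 of 37 above 0, 17 below and a median of 0.06 that became -0.04 without replicate 1 of Spink3+/+; 9 did not overlap upward (24.3%, beside 16.1% of all genes) and 4 downward (10.8%, beside 17%). Ctsb, the cathepsin that can activate trypsinogen, lay at 4.75 and 5.07 in Spink3+/+ and 5.16 and 5.31 in Spink3-/-, and at 5.74 and 5.33 in Spink3-/-XKI/+. Ctsl, which degrades trypsinogen, had overlapping groups (-0.21). Lgmn, legumain, was 3.38 and 3.44 against 3.80 and 3.76, with 4.51 and 4.28 in Spink3-/-XKI/+. Lamp1 and Lamp2 differed by +0.10 and +0.16. None was called.

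Chaperones and sensors of endoplasmic reticulum stress mostly lay on the positive side. Of 30 genes, 23 were above 0 and 7 below, with a median of 0.16; 13 did not overlap upward (43.3%, beside 16.1% of all genes) and 3 downward, and none was called. Hspa5, the BiP chaperone, lay at 6.74 and 6.99 in Spink3+/+ and 7.17 and 7.34 in Spink3-/-, with 6.90 and 6.92 in Spink3-/-XKI/+. Calr, calreticulin, differed by +0.44. In the branch of Eif2ak3 (PERK) and Atf4, Trib3 had 2.33 and 1.74 against 2.97 and 2.79, Ddit4 4.63 and 4.18 against 5.28 and 4.97, and Ddit3 (CHOP) -0.23 and -0.82 against 0.03 and -0.18. Atf6, the third sensor, lay on the other side, at -1.11 and -1.25 against -1.74 and -1.78, and Xbp1, the target of Ern1, differed by -0.06.

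The genes of apoptosis did not share a direction. Of 21 members of the Bcl2 family and the caspases, 8 lay above 0 and 13 below (median -0.08), 4 not overlapping upward (19.0%, beside 16.1% of all genes) and 6 downward (28.6%, beside 17%). Bcl2 differed by +0.05, Bcl2l1, which protects cells, by +0.40, and Mcl1 by -0.08. Fas, a death receptor, had the largest difference, with -1.20 and -1.12 in Spink3+/+ and -0.02 and -0.78 in Spink3-/-. Among 12 genes of necroptosis and the inflammasome, 10 lay above 0 and 2 below (median 0.20), 6 without overlap and all 6 upward (50%, beside 16.1% of all genes). Ripk1, the kinase at the fork between survival and necroptosis, lay at -1.67 and -1.70 against -0.95 and 1.61, so its +2.01 came mostly from replicate 2 of Spink3-/-; without replicate 1 of Spink3-/- it passed (+3.29, adjusted p = 0.0144), and without replicate 2 it was +0.73. Mlkl, the pore former, had -0.72 and -0.38 against -0.15 and -0.18, and Casp4, the inflammatory caspase, 0.29 and 0.56 against 1.25 and 0.90. Of 13 genes of p53 and acinar stress, 9 lay above 0 (median 0.14), and Cdkn1a, the p21 cell cycle inhibitor, differed by +0.03.

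Acute-phase and REG proteins, which the injured pancreas secretes, lay above Spink3+/+ in most members. Of 23 genes written in the list 16 were tested, 13 above and 3 below 0, with a median of 0.78. Among them 10 did not overlap upward (62.5%, beside 16.1% of all genes) and 1 downward, and Saa3 was the only one called. Over the 14 members well above background on all 4 arrays the median was 0.76, with 8 not overlapping upward (57.1%, beside 15.6% of all such genes). Reg1, the pancreatic stone protein, lay at 8.85 and 8.82 in Spink3+/+ and 9.69 and 9.49 in Spink3-/- (+0.75, SE 0.17, adjusted p = 0.642). Reg2 had 1.79 and 1.86 against 2.43 and 2.85, Reg3b, the pancreatitis-associated protein, 4.11 and 2.74 against 5.00 and 5.07, and Lgals3, galectin-3, 2.84 and 3.08 against 3.76 and 4.05. For these 4 genes the mean of the Spink3-/-XKI/+ arrays was higher still, with Reg2 at 3.91 and 3.96 and Reg3b at 5.88 and 6.57. Lbp, the binding protein of bacterial lipopolysaccharide, was on the other side, at -0.13 and -0.74 against -1.28 and -1.56.

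The cytokine pathway that drives acute-phase genes, with 13 tested members, had 10 above and 3 below 0 (median 0.38). Stat3, its transcription factor, lay at 4.57 and 4.92 against 5.24 and 5.25, and its feedback inhibitor Socs3 at 0.74 and 1.23 against 2.57 and 1.34. The receptor subunits Il6ra and Il6st overlapped between the genotypes. Pim1, a kinase that Stat3 induces, was at -0.56 and -2.07 against -2.17 and -2.96. Of 12 chemokine and NF-kappaB genes, 9 lay above 0 (median 0.35): Ccl2, which attracts monocytes, had -1.83 and -1.25 against 1.07 and -0.93, and Nfkb1 -0.31 and -0.18 against 0.21 and 0.34. Cxcl12 lay below, at 1.51 and 1.79 against 1.28 and 0.13. None of these was called.

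Immediate early genes, which cells switch on within minutes of a growth factor or of injury, lay almost all above 0. Of 21 tested, 20 lay above 0 and 1 below, with a median of 0.63. Among them 13 did not overlap upward (61.9%, beside 16.1% of all genes) and none downward, and none was called. Of the 21, 5 entered through Spink3-/- alone. The 15 on all 4 arrays had a median of 0.46, and 9 of them did not overlap upward (60%, beside 15.6% of all such genes). Klf6 lay at 3.97 and 3.79 in Spink3+/+ and 4.63 and 4.58 in Spink3-/-, Myc at -0.36 and -0.61 against 0.09 and -0.02, and Maff at -0.36 and -0.49 against 0.40 and 0.01. Atf3, also a gene of the stress response above, had -2.83 and -1.91 against 0.14 and -1.23, and Dusp5, a phosphatase of ERK, -4.20 and -4.26 against -2.18 and -0.67. Dusp5 was not well above background on either Spink3+/+ array, so its increase is bounded at 2.19-fold or more. Replicate 1 of Spink3-/- was the higher, with a median deviation of 0.76 against 0.32 in replicate 2, so the median of the list was 0.32 without replicate 1.

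Near them stands Errfi1, an inhibitor of the EGF receptor that the receptor's own signal induces. It lay at 1.83 and 1.59 in Spink3+/+ and at 3.56 and 3.05 in Spink3-/-, with 2.14 and 2.37 in Spink3-/-XKI/+ (difference +1.60, adjusted p = 0.234). Of the 7 genes of that family tested, 5 lay above 0 and 2 below; Egfr had 0.51 and 0.57 against 1.23 and 0.69, and Spry4, another feedback inhibitor, -0.86 and -2.31 against -2.36 and -3.30. Egr2 is the immediate early gene with the largest difference, and its promoter is printed because the CArG box, the site known to bind serum response factor, marks many genes of this class. Capitals mark the 1 match in the RefSeq window of 300 bases (GRCm38.p6, chr10:67537316-67537615, plus strand). Over all 32851 promoters of that length, 1.63% hold a match on either strand. Among the 18 immediate early genes with a RefSeq promoter, a match was found for 2, Egr2 and Dusp5. The percentage counts promoters, while a gene counted if any of its promoters matched. Egr2 has 5 promoters, 4 with a match.
Egr2 promoter: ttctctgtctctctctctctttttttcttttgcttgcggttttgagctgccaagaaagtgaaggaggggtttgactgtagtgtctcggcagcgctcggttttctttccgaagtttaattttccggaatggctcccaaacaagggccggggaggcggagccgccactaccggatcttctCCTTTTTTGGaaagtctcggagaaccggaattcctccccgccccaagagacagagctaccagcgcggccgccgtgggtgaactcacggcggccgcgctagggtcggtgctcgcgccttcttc

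Metallothioneins, small proteins that bind zinc and copper, differed widely between arrays. Mt1 lay at 9.16 and 7.58 in Spink3+/+ and at 10.01 and 9.88 in Spink3-/-, a difference of +1.57 (SE 0.65, adjusted p = 0.974) with groups that did not overlap. Mt2 had 6.89 and 4.49 against 8.09 and 6.74, which overlap. The Spink3+/+ arrays differed from each other by more than 1 in both genes, and so did the Spink3-/-XKI/+ arrays (7.34 and 8.95 for Mt1). The genes are neighbours on chromosome 8 and replicate 1 of Spink3-/- was the highest array for both, so their promoters are printed (RefSeq, GRCm38.p6, plus strand, chr8:94178839-94179138 for Mt1 and chr8:94172368-94172667 for Mt2). Capitals mark the core of the metal response element, TGCACNC or TGCGCNC on either strand, to which the zinc sensor Mtf1 is known to bind.
Mt1 promoter: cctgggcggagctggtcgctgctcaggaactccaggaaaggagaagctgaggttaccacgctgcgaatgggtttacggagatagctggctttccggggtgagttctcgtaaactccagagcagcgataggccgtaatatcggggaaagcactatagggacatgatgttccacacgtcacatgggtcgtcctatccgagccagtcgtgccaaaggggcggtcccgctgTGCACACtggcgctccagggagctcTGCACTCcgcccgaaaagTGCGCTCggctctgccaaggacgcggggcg
Mt2 promoter: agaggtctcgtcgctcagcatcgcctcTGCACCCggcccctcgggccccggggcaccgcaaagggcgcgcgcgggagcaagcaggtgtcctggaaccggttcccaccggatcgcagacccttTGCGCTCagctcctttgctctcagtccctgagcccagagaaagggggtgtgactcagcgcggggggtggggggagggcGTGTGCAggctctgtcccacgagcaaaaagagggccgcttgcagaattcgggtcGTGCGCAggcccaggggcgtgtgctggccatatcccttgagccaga

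Mt1 held 3 such cores and Mt2 4. A match of any number was found in 25.7% of the 32851 promoters, 3 or more in 1.97% and 4 or more in 0.517%. Among genes of oxidative stress and metal handling with a RefSeq promoter, 7 of 16 held the core in at least 1 promoter. They were Mt1, Mt2, Slc30a1, Gclm, Srxn1, Gstm1 and Txnip. Slc30a1, the zinc exporter, lay at -0.96 and -1.26 against -0.77 and -1.82. Of 22 genes of oxidative stress and metal handling, 15 lay above 0 and 7 below (median 0.08). Hmox1, heme oxygenase, and Nfe2l2, the NRF2 factor, differed by +0.08 and +0.09 with overlapping groups. Srxn1, an antioxidant enzyme, had 1.10 and 1.43 against 1.87 and 1.82. Gclm, of glutathione synthesis, holds 3 cores as Mt1 does and lay lower in Spink3-/-, at -1.67 and -1.58 against -2.67 and -2.34. None was called.

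Interferon-responsive genes lay above 0 in 19 of 26 members (median 0.20), with 8 not overlapping upward (30.8%, beside 16.1% of all genes) and none downward. Ifit3 lay at -0.25 and 0.28 against 1.30 and 0.62, Isg15 at 3.40 and 3.64 against 4.44 and 3.76, and Mx2 at -0.89 and -0.53 against -0.12 and 0.27. Isg15 lay at 3.03 and 2.37 in Spink3-/-XKI/+, below both other genotypes. Glycolytic and hypoxia-induced genes lay above 0 in 19 of 22 (median 0.28), 10 without overlap upward (45.5%) and 1 downward. Slc2a1, the glucose transporter GLUT1, had 0.25 and 0.47 against 1.17 and 0.85, and Ldha, lactate dehydrogenase, 6.01 and 6.70 against 6.80 and 6.76. None of either list was called.

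Cholesterol synthesis, the cell cycle and tight junctions gave no common direction. Sterol genes were above 0 in 14 of 21 (median 0.09) with 1 not overlapping each way; Hmgcs1, which starts the pathway, differed by +0.24. Cell cycle genes were above 0 in 14 of 22 (median 0.09), with Mki67 at 4.20 and 4.11 against 4.19 and 4.43. Of 18 tight junction genes 11 lay above 0 (median 0.08), and Tjp1 differed by +0.18 and Ocln by -0.03.

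**Figure D4:**
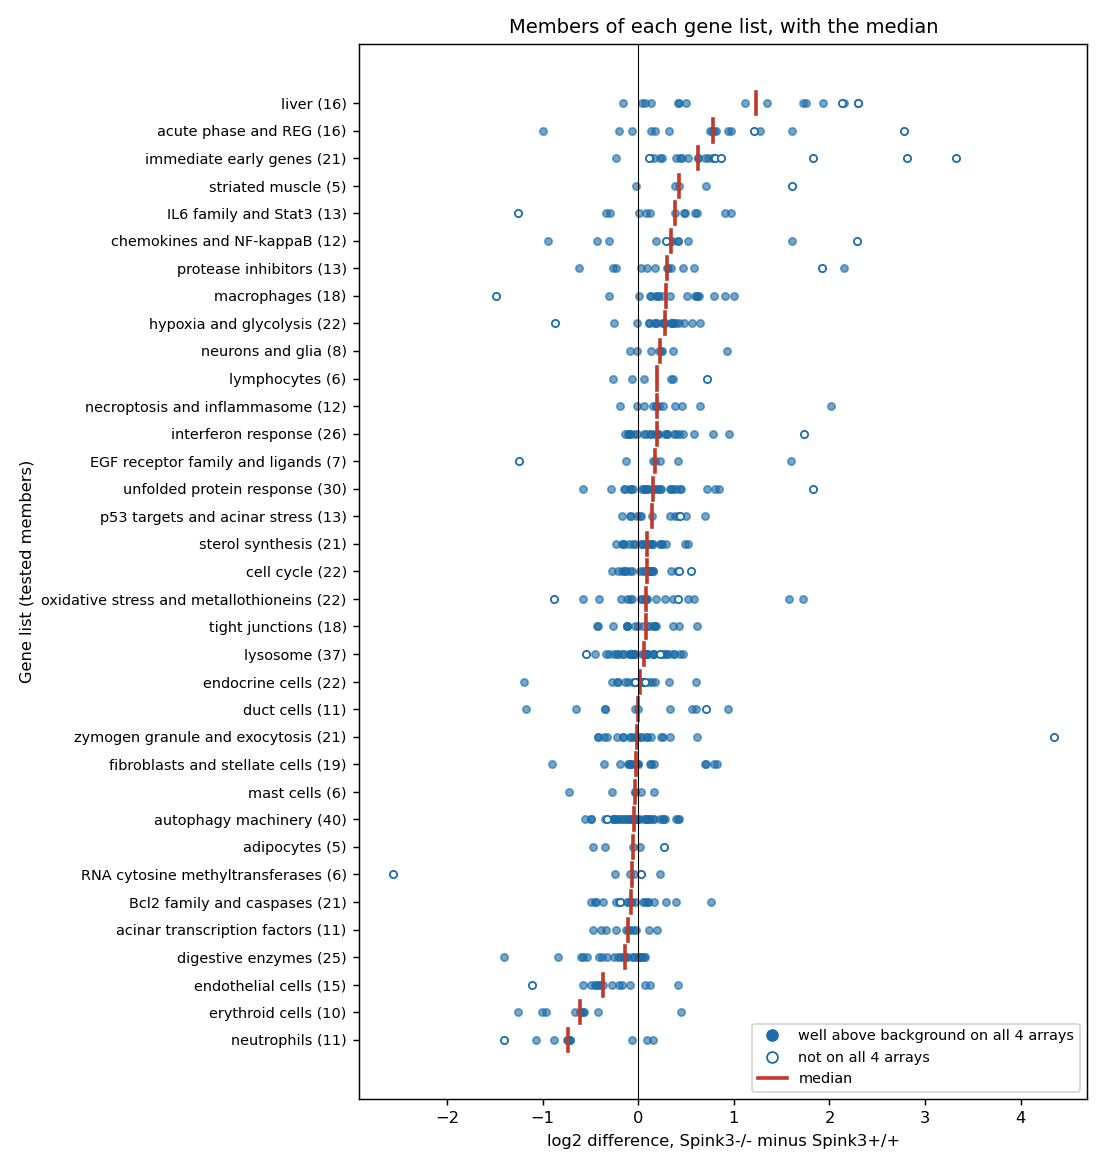
Difference between the genotypes (Spink3-/- minus Spink3+/+, log2) for each tested member of each list; points are genes, open points were not well above background on all 4 arrays, and red bars are list medians. The medians run from 1.23 for liver genes to -0.73 for neutrophil genes, and those of autophagy and digestive enzymes lie at -0.04 and -0.14.

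Markers of other pancreatic cells were mixed or level. The islet hormones hardly differed: Ins1 lay at 10.14 and 10.12 in Spink3+/+ and 10.08 and 10.26 in Spink3-/-, Ins2 and Gcg differed by +0.04 and +0.05, and the 22 endocrine genes had a median of 0.02. Nkx2-2, an islet transcription factor, was an exception, with 0.68 and 0.72 against 1.40 and 1.22 (adjusted p = 0.799). Of 11 duct genes 5 lay above and 6 below 0. The keratins Krt8, at 6.22 and 6.66 against 7.25 and 7.51, and Krt19, at 3.07 and 3.40 against 3.74 and 3.93, did not overlap upward, while Car2, carbonic anhydrase 2, and Sox9 did not overlap downward (-1.17 and -0.65). Among 19 genes of fibroblasts and stellate cells the collagens were level, with Col1a1 at +0.16 and Col3a1 at -0.02; Timp1, an inhibitor of matrix proteases, differed by +0.82 and Mmp2 by -0.90. None of these was called.

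Macrophage genes lay above 0 in 16 of 18, with a median of 0.29. Among them 13 did not overlap upward (72.2%, beside 16.1% of all genes) and 1 downward, and none was called. Cd68 lay at 1.17 and 1.46 in Spink3+/+ and at 1.97 and 1.90 in Spink3-/-, Aif1 at 1.61 and 2.00 against 2.41 and 2.38, and Ms4a7 at 0.39 and 0.68 against 1.72 and 1.35. Spink3-/-XKI/+ was higher than Spink3-/- in each, with Cd68 at 2.73 and 2.12. Csf1r, the macrophage growth factor receptor, differed by +0.18, and Cd163, a scavenger receptor of resident macrophages, lay below, at -1.69 and -2.38 against -2.74 and -4.31. The summed signal of the list was 156 and 162 in Spink3+/+ and 185 and 190 in Spink3-/-. Since several acute-phase, chemokine and lysosomal genes are also made by macrophages, these values stand beside those lists, and the part of macrophages in them was not tested.

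Neutrophil, erythroid and endothelial genes lay mostly below 0. Of 11 neutrophil genes 9 were below 0 (median -0.73), with 6 not overlapping downward (54.5%, beside 17% of all genes) and 1 upward: S100a8 lay at 4.21 and 4.64 against 3.62 and 3.77, and Mpo, myeloperoxidase, at 1.12 and 1.73 against 0.05 and 0.66, while Elane (+0.15) and Lcn2 (-0.06) overlapped. Of 10 erythroid genes 9 were below 0 (median -0.61) and 3 did not overlap downward, but the Spink3+/+ arrays themselves were far apart, with Hba-a1 at 9.63 and 8.46 against 8.59 and 8.66. Their summed signal was 1340 and 614 in Spink3+/+ and 672 and 620 in Spink3-/-. Endothelial genes were below 0 in 12 of 15 (median -0.37, and -0.21 without replicate 2 of Spink3-/-), with 10 not overlapping downward (66.7%) and 2 upward; Tie1 lay at 0.93 and 0.82 against 0.46 and 0.38 and Eng at 2.27 and 2.42 against 1.90 and 2.00, while Pecam1 differed by +0.07 and Kdr by +0.42. None of these was called, and what part blood left in the tissue has in the values was not tested. Of 6 lymphocyte genes 4 lay above 0 (median 0.20, and -0.17 without replicate 2 of Spink3-/-), and the 6 mast cell genes had a median of -0.03. These lists and those for adipocytes, striated muscle, mesothelium, neurons and intestine had 1 to 8 tested members each and no called gene.

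**Figure D5:**
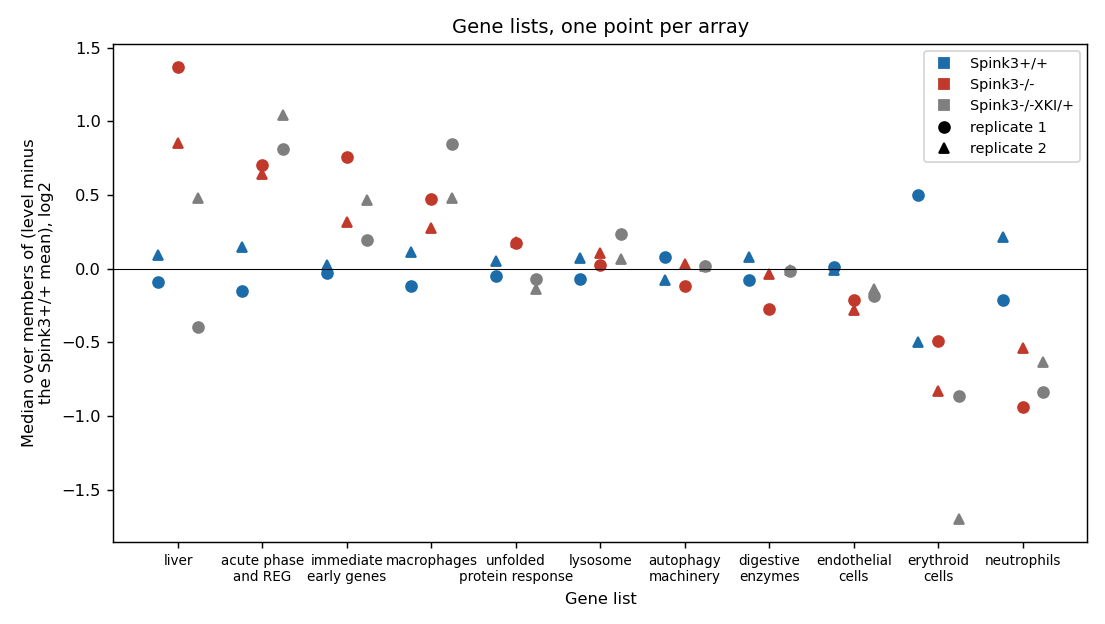
Median over the members of each list of the level minus the Spink3+/+ mean, for each array; colours are genotypes, circles replicate 1 and triangles replicate 2. Both Spink3-/- arrays lie above both Spink3+/+ arrays for liver, acute-phase, immediate early, macrophage and unfolded protein response genes, and below both for endothelial and neutrophil genes, while for lysosome, autophagy, digestive enzyme and erythroid genes the genotypes overlap.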

How the data were processed

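Total RNA was hybridised to 1-colour Agilent mouse arrays, 1 per sample. The deposited intensity is the processed signal of Agilent Feature Extraction 10.7.3.1, per the file headers: background-subtracted, detrended and on a linear scale, with annotation on mm9. No step that makes arrays comparable is named in the sources used here. The authors' value table for the series held the same intensity (largest difference 0). Each array had 62976 spots, 59305 not controls, and 55681 probes; 42.4% to 50.8% of those spots were well above background, 0 were saturated, and 126 to 221 outlier spots were left out. The arrays shared 1 slide and lay in 2 rows of it. Both Spink3+/+ arrays and replicate 1 of Spink3-/- lay in the first row. Replicate 2 of Spink3-/- and both Spink3-/-XKI/+ arrays lay in the second, so row and genotype cannot be fully told apart.

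Here log2 was taken, each array's 75th percentile subtracted (111 to 155 on the linear scale) and spots averaged per probe. Probes well above background on both arrays of Spink3-/- or of Spink3+/+ were kept, 22897 or 41.1%. They were named through RefSeq (26856 of all probes by accession, 3756 by symbol, 625 by an older symbol; 1697 kept the file's name and 22747 had none), and the brightest unsaturated probe stood for a gene: 13244 of 23857 named genes. The test was limma 3.58.1 under R 4.3.3, two-sided, with lmFit and eBayes on all 6 arrays and 3 residual degrees of freedom. The fit was also run on simulated data, with shifts larger than any list median given here. That run therefore does not bear on small differences. Figures used matplotlib 3.10.9.

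The named genes are Spink3, the called genes, the largest differences each way with an unadjusted p under 0.05 and no overlap (12 each way; 10 each way among probes well above background on all 4 arrays), and, of each list, the first 4 members tested, the largest difference each way without overlap, and other members as examples of a role; a few genes that meet the rule are not reported here. Members and lists were chosen with earlier results of these data known. Lists are described by counts and medians, without a test. Alternatives covered background correction, scaling, the filter on dim probes, the probe chosen, the samples fitted, a trend, blocks and each array left out. Same-numbered samples did not deviate together between the 2 genotypes (correlation -0.04) nor between Spink3+/+ and Spink3-/-XKI/+ (0.02), but did weakly between Spink3-/- and Spink3-/-XKI/+ (0.22), so the numbers were not taken to pair samples.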

Additional observations from a re-analysis of the deposited data

Results flagged for a closer look

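Probes without a gene name take no part in the comparison of genes. In the fit over all 22897 kept probes, 13 were called, and 6 of them were among the 5950 probes without a gene name, 1 higher and 5 lower in Spink3-/-, with a lowest limma adjusted p of 0.0256. They were picked out as a signal in data that the gene comparison does not use. One of the lower probes lay at 0.94 and 0.01 in Spink3+/+, at -4.89 and -4.25 in Spink3-/- and at 0.00 and 0.78 in Spink3-/-XKI/+. The other 4 lower probes were not well above background on any array without Spink3.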

How the results depend on the processing

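Spink3 was called under every alternative. The count of 7 called genes (5 higher, 2 lower) became 1 (0 higher, 1 lower) with normexp and quantile normalization, without a filter on dim probes, with only probes well above background on all 4 arrays and with the replicate block, 2 (1 and 1) with an intensity trend, and 11 (9 higher) when only the 4 arrays were fitted; median scaling left 3 higher. At an unadjusted limma p under 0.05, the settings with 0 higher calls gave 321, 413, 251 and 399 higher genes in that order, and leaving out replicate 1 of Spink3+/+ gave 176. Leaving out each array gave 1 to 13 calls, 0 to 11 higher and 1 to 8 lower. The labels do not say that replicate numbers pair samples, so a call lost under the replicate block is not read as a weaker effect. Spike-in scaling moved the median of all genes to 0.11 and the genes at an unadjusted p under 0.05 to 451 higher and 92 lower, from 350 and 322.

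Of the 37 named genes not called, 1 reversed: Nell2, at -2.33, was 0.50 without the filter, through another probe. List medians moved as follows. Autophagy became 0.0745 and lysosome 0.17 with spike-in scaling. With normexp, acute-phase genes had 0.60, immediate early genes 0.38, liver 0.71 and endothelial genes -0.24. Endothelial genes had -0.39 with quantile normalization, -0.25 with spike-in scaling, -0.32 on all 4 arrays, -0.20 with the mean of probes and -0.21 with slide row as a block. Liver had 0.81 on all 4 arrays and 1.37 with slide row. Leaving out arrays gave lysosome -0.043 to 0.14, acute-phase 0.64 to 0.82, immediate early 0.32 to 0.76, endothelial -0.37 to -0.21 and liver 0.85 to 1.37. The cause was not tested. Over 38 lists, 19 kept the sign of the median in every alternative, among them digestive enzymes, liver, acute-phase, immediate early, unfolded protein response, macrophage, neutrophil and endothelial genes. A kept sign is not a kept size: the median of digestive enzymes came near 0, at -0.026 with spike-in scaling. Leaving out arrays gave that list -0.28 to -0.035. Some alternatives could not move a list median: fitting only the 4 arrays, the intensity trend, the replicate block and leaving out a Spink3-/-XKI/+ array. Slide row as a block gave the list medians seen without replicate 2 of Spink3-/-, so it is no separate check. The deposited series values equal the scanner signals, so an alternative with those values was not run. Most called genes lie near background, where the scatter between arrays is widest.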
